A study of Homo sapiens with 8 samples.

Results

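The 9 genes described here encode the enzymes that write and erase DNA methylation, their main partners at the replication fork, and the Polycomb methyltransferase EZH2. They were chosen by symbol, DNMT1, DNMT3A, DNMT3B, UHRF1, HELLS, TET1, TET2, TET3 and EZH2, out of 58302 genes in the deposited count table, and each symbol had a single row. All 9 passed the filter on low counts. Their transcripts were measured by RNA sequencing in HCT116 p53+/+ cells, an established human colon cancer line that carries wild-type p53. In 4 cultures the cells had received 1 µM MANIO, a compound known here only by that name, and in 4 others its solvent DMSO, and all were collected after 24 hours. The labels call the 4 samples of each group biological replicates. The study asked how the compound acts on the transcription of the p53 response. All results come from this single line.

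DNA methylation silences promoters when a methyl group is placed on cytosines of CpG dinucleotides. DNMT3A and DNMT3B place it on unmethylated DNA, while DNMT1 copies the pattern onto the new strand after replication, guided by UHRF1, which binds hemimethylated DNA, and helped by the chromatin remodeller HELLS. The TET dioxygenases oxidise methylcytosine, which leads to its loss by dilution or by base excision repair. EZH2 is the catalytic subunit of Polycomb repressive complex 2 (PRC2), which methylates histone H3 at silent genes and can act beside DNA methylation in cancer cells.

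Total counts lay between 29270359 and 32509020 in the MANIO libraries and between 27945196 and 31750628 in the DMSO libraries. As a check of the treatment, the p53 targets CDKN1A and MDM2 were 5.38-fold and 3.60-fold higher in MANIO. Of 4 sets of cell type markers, the 6 epithelial genes summed to 4300 to 4810 CPM (counts scaled to library size, with TMM factors that correct for library composition) in MANIO and to 3540 to 3790 CPM in DMSO. The 4 leukocyte genes summed to at most 0.317 CPM in MANIO and 0.255 CPM in DMSO, and the 4 endothelial genes to at most 0.570 and 1.31 CPM. The fibroblast set summed to 39.1 to 46.7 CPM in MANIO and 21.1 to 26.1 CPM in DMSO, nearly all of it COL1A1, while COL1A2, COL3A1 and DCN each averaged under 0.1 CPM. DMSO replicate 1 stood apart: mitochondrially encoded genes took 7.48% of its counts, against 4.82% to 5.21% in the other DMSO libraries and 6.70% to 7.62% in the MANIO libraries. The part of the mitochondrial share, COL1A1 and the epithelial genes in the results was not tested. For several results the value without DMSO replicate 1 is given too.

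The methylation genes split into a group that fell, a group that rose and HELLS, which passed no test. DNMT1, UHRF1, TET1 and EZH2 fell in MANIO and DNMT3A, DNMT3B, TET2 and TET3 rose, each by less than 1.3-fold. Among all 15712 tested genes 54.6% passed the same test (edgeR's quasi-likelihood test, adjusted p under 0.05), 27.8% higher and 26.8% lower, so 8 of 9 is to be read against a background in which most genes passed. The groups did not overlap for 6 of the 9 genes, against 48.3% of all tested genes. Under edgeR's glmTreat, which asks whether a change exceeds 1.2-fold, 0 of the 9 passed, 1 of them had an unadjusted p under 0.05, and 26.3% of all tested genes passed. Changes in bulk RNA do not tell whether fewer cells carried a transcript or each cell carried less of it.

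Within the RefSeq promoter table for GRCh38.p14, all 9 genes had at least 1 annotated start, 21 in all. Stretches from 150 bases before to 20 after each start were searched on both strands for the letters TTTCCCGC, TTTCGCGC, TTTGCCGC and TTTGGCGC. These letters are bound by E2F factors, which regulate replication genes. They occurred at a start of 4 genes, DNMT1, UHRF1, HELLS and EZH2, and in 2.04% of the 35116 stretches of the table. DNMT3A with 6 starts, TET1 with 3, TET2 and TET3 with 2 each and DNMT3B with 1 held none. The DNMT3B stretch, at chr20:32779702-32779871, lies inside the gene, so the stretch at the start of its span (32762385) was not searched. All stretches of HELLS, DNMT1 and UHRF1 also lie inside these genes. Their spans begin at 94501434 for HELLS, 10231286 for DNMT1 (minus strand) and 4903080 for UHRF1, and those places were not searched either. The stretch length was settled after longer ones had been looked at. For each of the 4 genes the start that held them is shown, because these genes share the letters, and 1 start of TET3, the gene that rose most, beside them, 5′ to 3′ on the gene's own strand, with E2F letters of either strand in capitals.
DNMT1: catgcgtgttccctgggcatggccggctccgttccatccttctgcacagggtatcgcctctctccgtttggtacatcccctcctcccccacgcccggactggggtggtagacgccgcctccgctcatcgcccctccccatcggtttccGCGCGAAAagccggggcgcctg
UHRF1: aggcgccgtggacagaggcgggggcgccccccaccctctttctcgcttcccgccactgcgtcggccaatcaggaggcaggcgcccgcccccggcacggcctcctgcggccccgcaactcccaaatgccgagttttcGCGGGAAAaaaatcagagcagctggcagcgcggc
HELLS: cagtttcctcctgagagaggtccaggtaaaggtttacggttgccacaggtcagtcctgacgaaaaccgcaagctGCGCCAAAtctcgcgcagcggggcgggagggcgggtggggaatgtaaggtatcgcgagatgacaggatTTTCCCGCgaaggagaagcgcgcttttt
EZH2: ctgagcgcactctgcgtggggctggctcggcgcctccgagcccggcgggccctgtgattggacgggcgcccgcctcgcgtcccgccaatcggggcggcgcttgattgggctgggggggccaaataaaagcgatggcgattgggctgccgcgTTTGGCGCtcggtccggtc
TET3: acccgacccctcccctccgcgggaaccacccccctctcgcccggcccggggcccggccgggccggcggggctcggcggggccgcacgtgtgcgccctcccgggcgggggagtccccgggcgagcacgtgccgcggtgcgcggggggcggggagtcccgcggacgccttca
These lie at chr19:10194934-10195103 (minus strand), chr19:4909351-4909520 (plus), chr10:94545638-94545807 (plus), chr7:148884272-148884441 (minus) and chr2:73984760-73984929 (plus). HELLS held the letters at 2 places and each of the other 3 genes at 1, and they overlapped none of the other motifs searched. UHRF1 and EZH2 have further annotated starts without the letters. The CHR letters TTTGAA or TTCGAA, bound by the DREAM complex that represses cell cycle genes, were found at 1 start of TET2 (8.89% of all stretches). The letters CCAAT were found at 1 start each of DNMT3B, TET3 and EZH2 and at 2 starts each of UHRF1 and TET1 (24.8%). The p53 half-site consensus was found at none of the 21 (3.61%). These percentages also count stretches, not genes. The stretches shown hold 17 CpG in DNMT1, 19 in UHRF1, 15 in HELLS, 23 in EZH2 and 28 in TET3, against a median of 8 over all stretches. A match of letters is a description and does not show binding.

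Maintenance methylation came first in abundance. Per kilobase of exonic sequence, DNMT1 stood at 24.9 ± 1.26 CPM in MANIO and 28.9 ± 1.94 CPM in DMSO (SD, n = 4 each), the highest of the 9 genes in both groups. EZH2 followed with 21.6 CPM per kb in MANIO and 24.0 in DMSO, and UHRF1 with 18.8 in MANIO and 21.4 in DMSO, where libraries of EZH2 and UHRF1 overlapped in DMSO but not in MANIO. HELLS and DNMT3B traded places on this scale. DNMT3B stood at 10.3 and HELLS at 9.99 CPM per kb in MANIO, with overlapping libraries, against 9.01 and 10.6 in DMSO, where they did not overlap. The exonic length joins all annotated exons of a gene, 10148 bases for HELLS and 4630 for DNMT3B, and the order depends on it. In CPM alone HELLS had 101 in MANIO and 108 in DMSO, against 47.6 and 41.7 for DNMT3B. TET3 had 4.96 CPM per kb in MANIO and 3.91 in DMSO, DNMT3A 3.025 and 2.495, TET2 2.19 and 1.74, and TET1, the lowest, 0.424 and 0.5205. Neighbours in this lower part of the order did not overlap in either group.

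**Figure D1:**
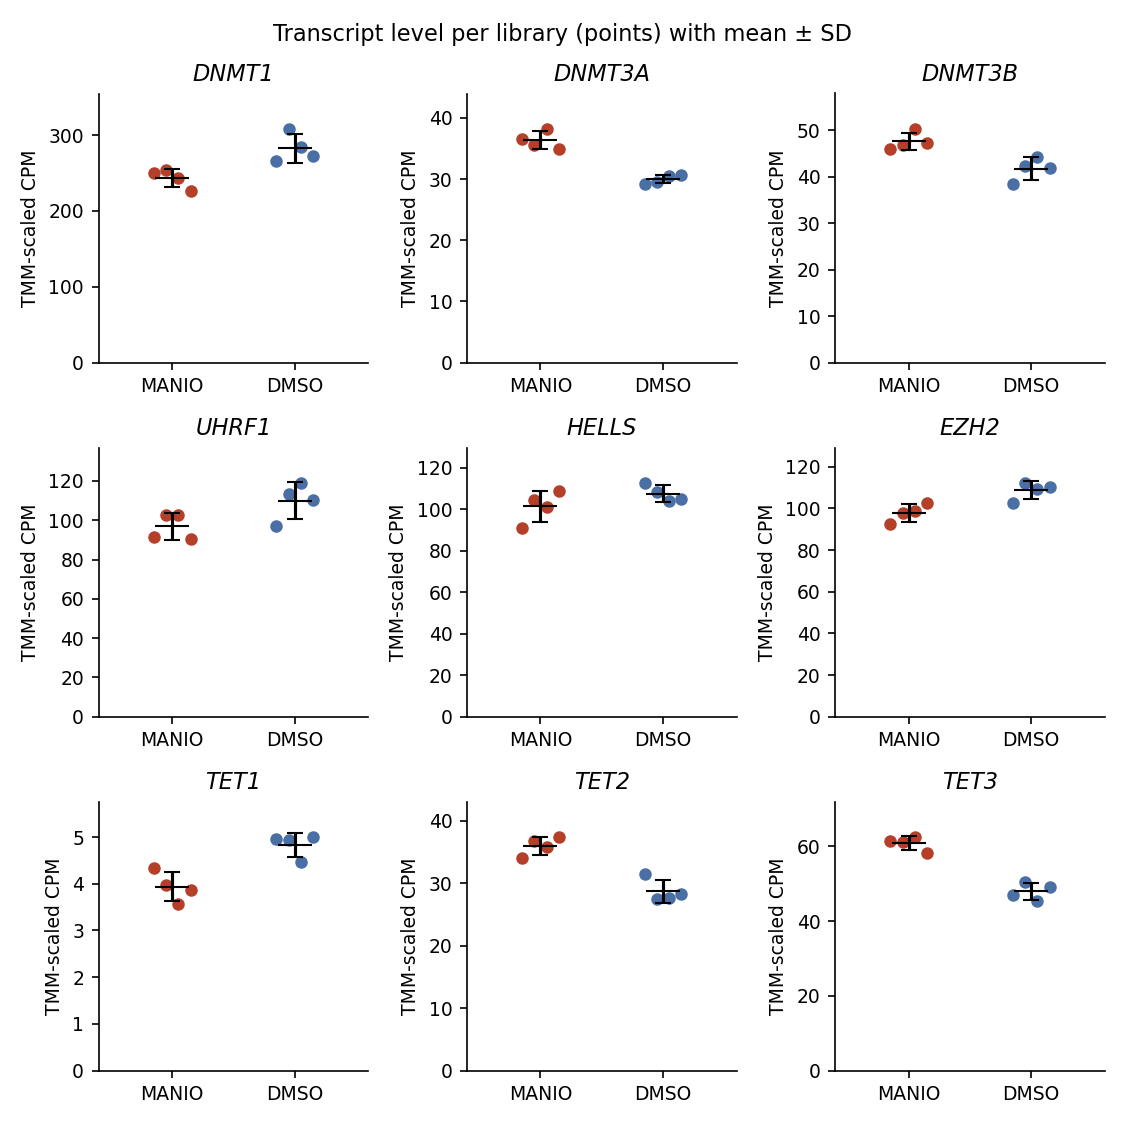
TMM-scaled CPM of the 9 genes (vertical axes, each from 0) in each MANIO (red) and DMSO (blue) library, with the mean and SD of 4 libraries in black. All 4 MANIO libraries lie above all 4 DMSO libraries for DNMT3A, DNMT3B, TET2 and TET3 and below them for DNMT1 and TET1, while the groups overlap for UHRF1, HELLS and EZH2.

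DNMT1, the maintenance methyltransferase, fell. Its level was 250, 254, 244 and 226 CPM in MANIO replicates 1 to 4, against 265, 309, 285 and 272 CPM in DMSO replicates 1 to 4. The highest MANIO library lay below the lowest DMSO library, which was replicate 1. The means were 244 ± 12.3 CPM in MANIO and 283 ± 19.0 CPM in DMSO (SD, n = 4 each), a log2 fold change of -0.22 (SE 0.0588), with an adjusted p of 0.00606 in edgeR's quasi-likelihood test. Without DMSO replicate 1 the log2 fold change was -0.25. DNMT1 (ENSG00000130816) lies on chromosome 19 of GRCh38 from 10133345 to 10231286 in GENCODE 29.

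UHRF1, which recruits DNMT1 to newly replicated DNA, fell by a similar amount with more spread. It had 91.3, 103, 102 and 90.7 CPM in the MANIO libraries, against 97.02, 113, 119 and 111 CPM in the DMSO libraries. DMSO replicate 1 lay below 2 of the MANIO libraries, and the other 3 DMSO libraries lay above all of them. The means were 96.8 ± 6.74 CPM in MANIO and 110.03 ± 9.39 CPM in DMSO (SD, n = 4 each), a log2 fold change of -0.18 (SE 0.0681; edgeR's quasi-likelihood adjusted p = 0.0317). Without DMSO replicate 1 the log2 fold change was -0.24 (edgeR adjusted p = 0.00302), but the call was lost in 5 of 8 fits with 1 library left out. UHRF1 (ENSG00000276043) lies on chromosome 19 from 4903080 to 4962154.

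HELLS, the remodeller that helps methylate packed chromatin, had 91.1, 105, 101 and 109 CPM in the MANIO libraries, against 113, 108, 104 and 105 CPM in the DMSO libraries. The groups overlapped widely, with MANIO replicate 1 the lowest of all 8 libraries. The log2 fold change of -0.08 (SE 0.0596) had a 95% interval from -0.21 to 0.04 and an adjusted p of 0.247 in edgeR's quasi-likelihood test, so a fall as large as that of UHRF1 lies inside the interval. The log2 fold change was -0.06 without DMSO replicate 1 and -0.04 without MANIO replicate 1. HELLS (ENSG00000119969) lies on chromosome 10 from 94501434 to 94613905, and 4.32% of its exonic bases overlap another gene.

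The de novo methyltransferases rose. DNMT3A had 36.6, 35.6, 38.3 and 34.99 CPM in MANIO replicates 1 to 4, against 29.3, 29.6, 30.5 and 30.6 CPM in DMSO replicates 1 to 4. The gap between the groups was wider than the range inside either. The means were 36.4 ± 1.43 CPM in MANIO and 29.99 ± 0.675 CPM in DMSO (SD, n = 4 each), a 1.21-fold rise (log2 fold change 0.28, SE 0.0558; edgeR's quasi-likelihood adjusted p = 0.000639). DNMT3A (ENSG00000119772) lies on chromosome 2 from 25227855 to 25342590.

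DNMT3B, the de novo enzyme that HCT116 cells carry at the higher level per kilobase, had 46.0, 46.8, 50.4 and 47.3 CPM in the MANIO libraries, against 38.4, 42.4, 44.3 and 41.8 CPM in the DMSO libraries. All MANIO libraries were above all DMSO libraries, of which replicate 1 was the lowest. The rise was 1.14-fold (log2 fold change 0.19, SE 0.0597; edgeR's quasi-likelihood adjusted p = 0.0137). It was 0.15 on the log2 scale without DMSO replicate 1 (edgeR adjusted p = 0.0415) and lost the call without MANIO replicate 3 (edgeR adjusted p = 0.0511). DNMT3B (ENSG00000088305) lies on chromosome 20 from 32762385 to 32809356.

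Among the erasers, TET3 rose most. It had 61.3, 61.2, 62.6 and 58.2 CPM in the MANIO libraries, against 46.9, 50.5, 45.3 and 49.1 CPM in the DMSO libraries. The lowest MANIO library stood well above the highest DMSO library. The means were 60.8 ± 1.85 CPM in MANIO and 47.9 ± 2.31 CPM in DMSO (SD, n = 4 each), a 1.27-fold rise (log2 fold change 0.34, SE 0.0553; edgeR's quasi-likelihood adjusted p = 9.37e-05). This was the smallest p among the 9 genes, and 61.7% of all tested genes changed by less. TET3 (ENSG00000187605) lies on chromosome 2 from 73986404 to 74108176.

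TET2, the family member without a CXXC DNA-binding domain of its own, had 34.1, 36.7, 35.8 and 37.5 CPM in the MANIO libraries, against 31.5, 27.4, 27.6 and 28.3 CPM in the DMSO libraries. The groups did not overlap, and DMSO replicate 1 was the closest to MANIO. The rise was 1.26-fold (log2 fold change 0.33, SE 0.0626; edgeR's quasi-likelihood adjusted p = 0.000412), and the log2 fold change was 0.37 without DMSO replicate 1. TET2 (ENSG00000168769) lies on chromosome 4 from 105145875 to 105279816.

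TET1 fell. This gene was the least abundant of the 9, with 137, 130, 113 and 115 counts in the MANIO libraries and 133, 141, 140 and 141 counts in the DMSO libraries, or 4.34, 3.96, 3.58 and 3.87 CPM against 4.95, 4.93, 4.45 and 5.01 CPM. After scaling the groups did not overlap. The log2 fold change was -0.29 (SE 0.1; edgeR's quasi-likelihood adjusted p = 0.0214), and the call was lost without MANIO replicate 3 (edgeR adjusted p = 0.0695) and with DESeq2 (adjusted p = 0.0559). TET1 (ENSG00000138336) lies on chromosome 10 from 68560656 to 68694482.

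EZH2, the Polycomb methyltransferase, fell by the smallest amount of the called genes. It had 92.4, 97.6, 98.6 and 102 CPM in the MANIO libraries, against 102, 112, 109 and 110 CPM in the DMSO libraries. Only MANIO replicate 4 and DMSO replicate 1 met. The means were 97.8 ± 4.13 CPM in MANIO and 109 ± 4.35 CPM in DMSO (SD, n = 4 each), a log2 fold change of -0.15 (SE 0.0528; edgeR's quasi-likelihood adjusted p = 0.0234). It was -0.18 without DMSO replicate 1, and the call was lost in 5 of 8 fits with 1 library left out. EZH2 (ENSG00000106462) lies on chromosome 7 from 148807383 to 148884321.

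**Figure D2:**
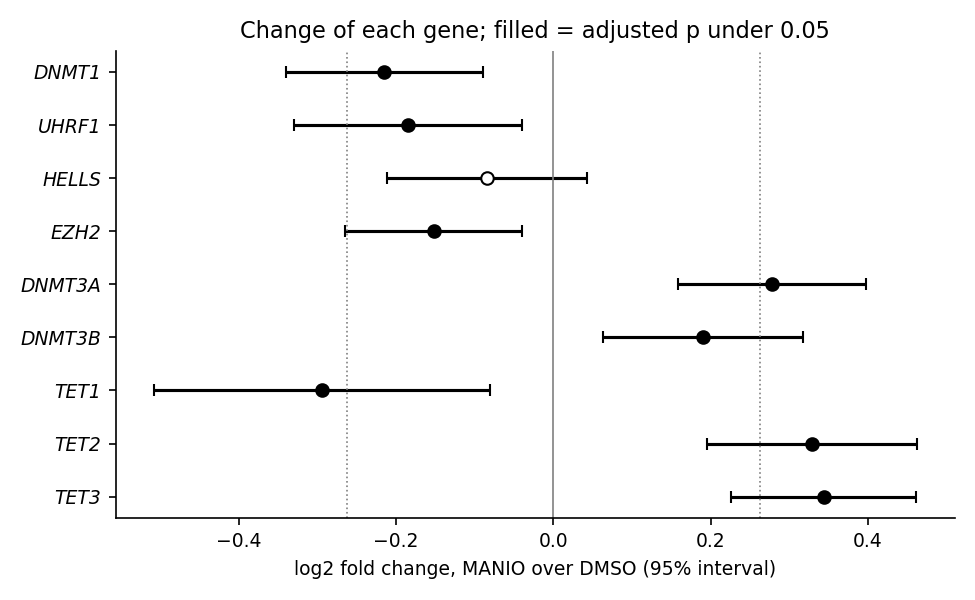
Log2 fold change of each gene, MANIO over DMSO, with its 95% interval from edgeR; filled points passed at an adjusted p under 0.05 and dotted lines mark a 1.2-fold change. The points lie between -0.29 for TET1 and 0.34 for TET3, and the interval of HELLS spans 0.

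Ratios of counts within a library compare genes without any scaling. Of 9 pairs compared, 5 had groups that did not overlap, each with an exact two-sided permutation p of 0.0286, the smallest that 4 against 4 can give, and 0.0514 after Benjamini-Hochberg adjustment over the 9 pairs. None therefore passed at an adjusted 0.05, and the sizes are given as measured. DNMT1 and TET1 lay wholly below DMSO in MANIO, and DNMT3A, DNMT3B, TET2 and TET3 wholly above it. The ratios of DNMT1 to DNMT3A or DNMT3B and of TET1 to TET2 or TET3 therefore could not overlap. Their permutation p is no separate support. The share of all gene pairs without overlap is not given here. The log2 ratio of DNMT1 to DNMT3A was 2.77, 2.84, 2.67 and 2.69 in the MANIO libraries and 3.18, 3.38, 3.22 and 3.15 in the DMSO libraries, a difference of -0.49 (SE 0.0639). Relative to the de novo enzyme, DNMT1 transcripts were thus less abundant in every MANIO library than in any DMSO library. DNMT1 to DNMT3B differed by -0.41 (SE 0.0657).

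The other ratios without overlap were those of TET1 to TET2, with a difference of -0.63 (SE 0.0910), of TET1 to TET3 with -0.64 (SE 0.0697), and of EZH2 to EZH1 with -0.30 (SE 0.0679). EZH1 encodes the alternative catalytic subunit of PRC2 and had 40.2 ± 1.69 CPM in MANIO and 36.3 ± 2.65 CPM in DMSO (SD, n = 4 each; edgeR's quasi-likelihood adjusted p = 0.0645, and 0.0236 without DMSO replicate 4). Pairs whose ratios overlapped were DNMT3A to DNMT3B (0.09, SE 0.0404; exact permutation p = 0.114), DNMT1 to UHRF1 (-0.03, SE 0.0660; exact p = 0.829), UHRF1 to HELLS (-0.10, SE 0.110; exact p = 0.371) and TET2 to TET3 (-0.01, SE 0.0800; exact p = 0.857). A p that misses the threshold does not show that these ratios were equal in the 2 groups. Leaving out 1 library moved DNMT1 to UHRF1 between -0.072 and -0.00156, UHRF1 to HELLS between -0.179 and -0.0305, and TET2 to TET3 across 0. The values without DMSO replicate 1 were -0.00156, -0.179 and 0.041 for these pairs in turn.

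**Figure D3:**
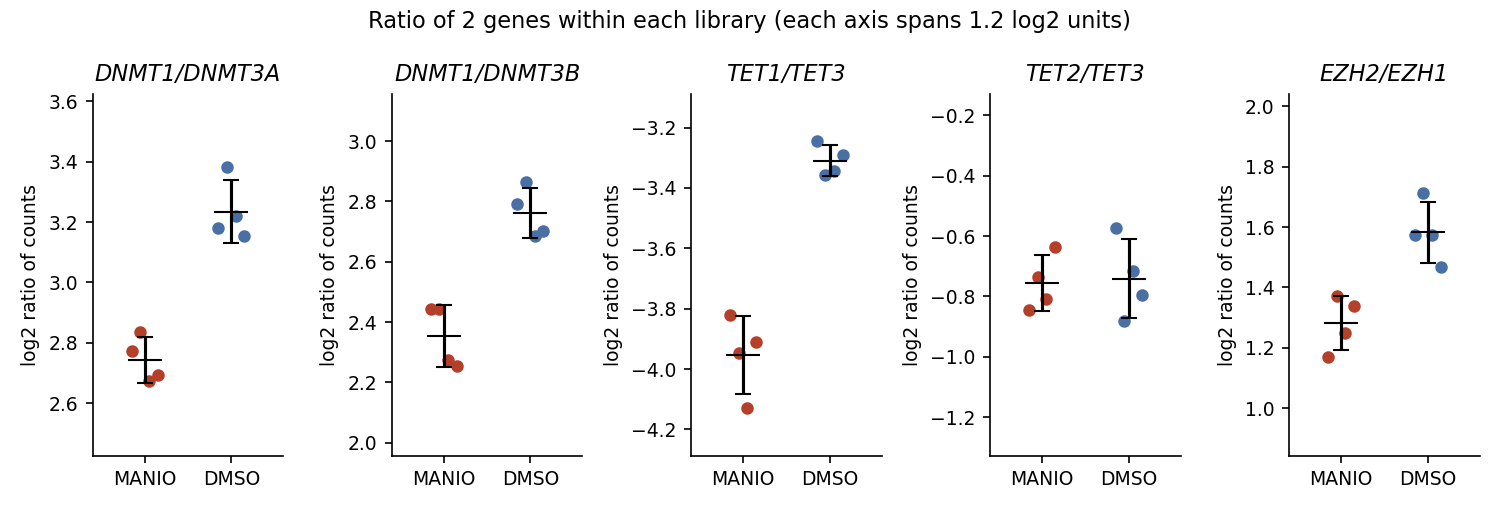
Log2 ratio of the counts of 2 genes in each MANIO (red) and DMSO (blue) library, with mean and SD in black; every vertical axis spans 1.2 log2 units and does not start at 0. The groups separate for DNMT1/DNMT3A, DNMT1/DNMT3B, TET1/TET3 and EZH2/EZH1 and overlap for TET2/TET3.

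The pathways around these genes were described with 10 lists chosen from general knowledge, by counts and medians without a set test, beside the 54.6% of all tested genes called and their median log2 fold change of 0.00. Of 24 S phase genes under E2F control, 20 fell and 4 did not pass, with a median of -0.35. PCNA, also a replication gene, was placed in the list of methylation partners instead, and it rose (log2 fold change 0.47). A total of 0 of the 24 rose in edgeR's quasi-likelihood test, at an unadjusted p under 0.05 and in DESeq2 with all 8 libraries. With 1 library left out, 18 to 20 fell, and without MANIO replicate 3 the ribonucleotide reductase gene RRM2, named after its value was seen, rose (log2 fold change 0.20, edgeR adjusted p = 0.0165, against 0.14 and 0.104 with all 8). MCM7, a subunit of the replicative helicase, had 354 ± 18.6 CPM in MANIO and 570 ± 39.3 CPM in DMSO (SD, n = 4 each; -0.69). The primase gene PRIM1, with 21.6% of its exonic bases in another gene, fell by 0.67 on the log2 scale, the polymerase gene POLA1 by 0.65 and the clamp loader gene RFC4 by 0.57. The fall of DNMT1 was smaller than that of 18 of the 24, and the falls of UHRF1 and EZH2 were smaller still.

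Of 11 tested partners and cofactors of DNA methylation, 4 rose, 5 fell and 2 did not pass (median -0.04). PCNA, the sliding clamp that brings DNMT1 to the fork and also a p53 target, had 524 ± 31.8 CPM in MANIO and 378 ± 12.0 CPM in DMSO (SD, n = 4 each; log2 fold change 0.47). DMAP1, a DNMT1-associated protein gene, rose by 0.56 on the log2 scale. The ligase gene LIG1, which joins fragments of the new strand and helps recruit UHRF1, fell by 0.33 and CDCA7L, a paralogue of the HELLS partner CDCA7, fell by 0.33 with 20.4% of its exonic bases in another gene. UHRF2, the paralogue of UHRF1, rose by 0.21. NSD1 is a histone H3 methyltransferase gene whose mark DNMT3A reads. It had 176 ± 8.92 CPM in MANIO and 143 ± 6.54 CPM in DMSO (SD, n = 4 each). Its log2 fold change was 0.30 (SE 0.0546). UHRF2 and NSD1, like PCNA and DMAP1, moved against the narrow majority of this list, where 5 fell and 4 rose. DNMT3L, the catalytically inactive relative of DNMT3A, had 0 counts in all 8 libraries.

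Of 8 genes listed as methyl-CpG readers, 4 rose, 1 fell and 3 did not pass (median 0.18). ZBTB38 had 72.5 ± 3.18 CPM in MANIO and 54.0 ± 2.498 CPM in DMSO, and MBD1 had 74.9 ± 2.29 CPM in MANIO and 56.0 ± 3.06 CPM in DMSO (SD, n = 4 each; log2 fold changes 0.43 and 0.42). ZBTB4 rose by 0.29 and ZBTB33, the Kaiso gene, by 0.23 on the log2 scale, both also zinc finger readers. MBD2, also a reader, fell (-0.13; edgeR's quasi-likelihood adjusted p = 0.0363) against that majority, but it lost its call in 6 of 8 fits with 1 library left out, all but those without MANIO replicate 4 or DMSO replicate 1 (edgeR adjusted p up to 0.107), and without the filter.

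Of 7 tested TET cofactors, 2 rose, 3 fell and 2 did not pass (median -0.32). OGT, the O-GlcNAc transferase that binds TET2 and TET3, had 379, 362, 408 and 418 CPM in the MANIO libraries, against 248, 249, 249 and 273 CPM in the DMSO libraries. The groups were far apart, and the log2 fold change was 0.62 (SE 0.0585). IDH1, which makes the oxoglutarate that TET enzymes consume, had 96.0, 97.3, 95.2 and 104 CPM in the MANIO libraries, against 182, 152, 161 and 157 CPM in the DMSO libraries. It fell by 0.73 on the log2 scale (SE 0.0616), with every MANIO library below every DMSO library. SALL4, a zinc finger gene linked to TET2, rose by 1.21 at a low level (3.69 ± 0.641 CPM in MANIO and 1.59 ± 0.143 CPM in DMSO), and the ubiquitin ligase adaptor gene DCAF1, with 19.3% of its exonic bases in another gene, fell by 0.34. All 4 passed edgeR's quasi-likelihood test with an adjusted p of 4.56e-05 or less.

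Base excision repair downstream of the TET enzymes had 2 of 9 genes higher, 4 lower and 3 not passing (median -0.16). NEIL1, a glycosylase gene with 30.5% of its exonic bases in another gene, rose by 0.82. The endonuclease gene APEX1 fell by 0.36, PARP1 by 0.29 and the ligase gene LIG3, with 30.5% of its exonic bases in another gene, by 0.28 on the log2 scale. TDG, the glycosylase that excises oxidised methylcytosine, rose by 0.23, like NEIL1 against the majority of this list. Of 7 tested genes listed for methyl donor supply 1 rose, 2 fell and 4 did not pass (median -0.08). MTRR rose by 0.20, the AHCY-like gene AHCYL1 fell by 0.28 and MAT2A, which makes S-adenosylmethionine, fell by 0.16. AHCY itself (0.06), named after its value was seen, did not pass. MAT2A lost its call without MANIO replicate 1 (edgeR adjusted p = 0.0593) or 2 (edgeR adjusted p = 0.087), and 12.4% of its exonic bases lie in another gene.

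Of 11 tested PRC2 genes 1 rose, 4 fell and 6 did not pass (45.5% called; median -0.05), and the core subunit genes SUZ12 (-0.14) and EED (-0.05), the textbook core, did not pass with all 8 libraries. SUZ12 passed, lower, without MANIO replicate 4 (edgeR adjusted p = 0.0119) or DMSO replicate 2 (edgeR adjusted p = 0.048) and without the filter. PHF19, an accessory subunit that brings PRC2 to chromatin, had 47.2, 47.3, 44.2 and 40.5 CPM in the MANIO libraries, against 62.9, 77.2, 69.7 and 65.8 CPM in the DMSO libraries. It fell by 0.62 on the log2 scale (SE 0.0715; edgeR's quasi-likelihood adjusted p = 3.79e-06), without overlap. The histone chaperone genes RBBP4, with 18% of its exonic bases in another gene, and RBBP7, both shared with other complexes, fell by 0.32 and 0.29, and AEBP2 rose by 0.26. On the opposing side, the demethylase gene KDM6B had 55.3 ± 6.02 CPM in MANIO and 31.9 ± 2.20 CPM in DMSO (SD, n = 4 each), a log2 fold change of 0.79 (SE 0.0786; edgeR's quasi-likelihood adjusted p = 8.11e-07), while KDM6A (0.12) did not pass with all 8 libraries but rose without DMSO replicate 1.

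**Figure D4:**
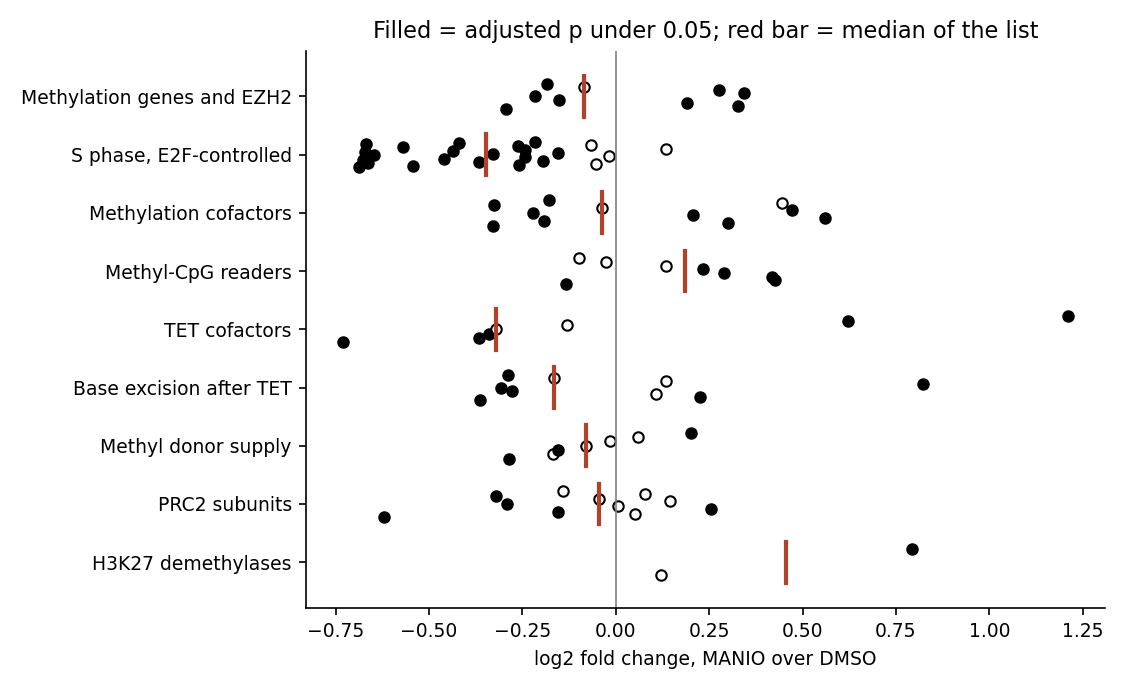
Log2 fold change, MANIO over DMSO, of the 9 methylation genes with EZH2 (top) and of the tested genes of 8 surrounding lists; filled points passed edgeR's test at an adjusted p under 0.05 and red bars are list medians. Most S phase points lie left of 0 with a median of -0.35, and the methyl-CpG readers mostly right of it with a median of 0.18.

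Many genes that DNA methylation is known to silence had 0 or few counts in both groups. Of 24 genes often methylated at their promoters in colorectal cancer, 16 were too low to be tested, 13 of them with 0 counts in all 8 libraries, among them the WNT antagonist genes SFRP1, SFRP2 and SFRP5, named after their values were seen. The 16 summed to 4 to 16 counts in a MANIO library and 1 to 8 in a DMSO library, with overlapping ranges. Of the 8 tested, NDRG4 had 32.2, 32.3, 34.7 and 30.5 CPM in the MANIO libraries, against 13.2, 13.1, 15.9 and 13.5 CPM in the DMSO libraries, and rose by 1.22 on the log2 scale (SE 0.0741; edgeR's quasi-likelihood adjusted p = 5.45e-09). CACNA1G fell (-0.31), and CDKN2A (-0.25) and RUNX3 (0.06) did not pass, nor did the other 4. CDKN2A passed, lower, when the filter was dropped (edgeR adjusted p = 0.00198). Of 20 germline genes that somatic cells silence, 18 were too low to be tested and summed to 26 to 34 counts in a MANIO library and 16 to 31 in a DMSO library. The other 2, MAGEB2 and MAGEA3, were well detected, and MAGEB2 fell (-0.23) while MAGEA3 (-0.03) did not pass. MAGEA6, a near-identical copy of MAGEA3, had 13 counts over the 4 MANIO libraries and 10 over the 4 DMSO libraries. How reads that match both copies were counted was not examined. Among the untested genes, DDX4, a germ cell RNA helicase gene named after its value was seen, had 27 counts over the 4 MANIO libraries and 5 over the 4 DMSO libraries, and it rose when the filter was dropped and in DESeq2. These counts do not measure methylation itself.

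Gene span was set beside the changes. Among 10529 tested genes under 50 kb, 30% rose and 22.1% fell. Among 1675 tested genes spanning 100 to 200 kb, 22.8% rose and 36.4% fell (median log2 fold change -0.06), and among 977 of 200 kb or more, 12.5% rose and 60.2% fell. DNMT3A (115 kb), TET2 (134 kb) and TET3 (122 kb) rose in the class of 100 to 200 kb, where TET1 (134 kb) fell and HELLS (113 kb) did not pass. DNMT1 (97.9 kb), EZH2 (76.9 kb) and UHRF1 (59.1 kb) fell in the class of 50 to 100 kb, where 27.4% rose and 27.5% fell, and DNMT3B spans 47.0 kb. The part of gene length in these changes was not tested.

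**Figure D5:**
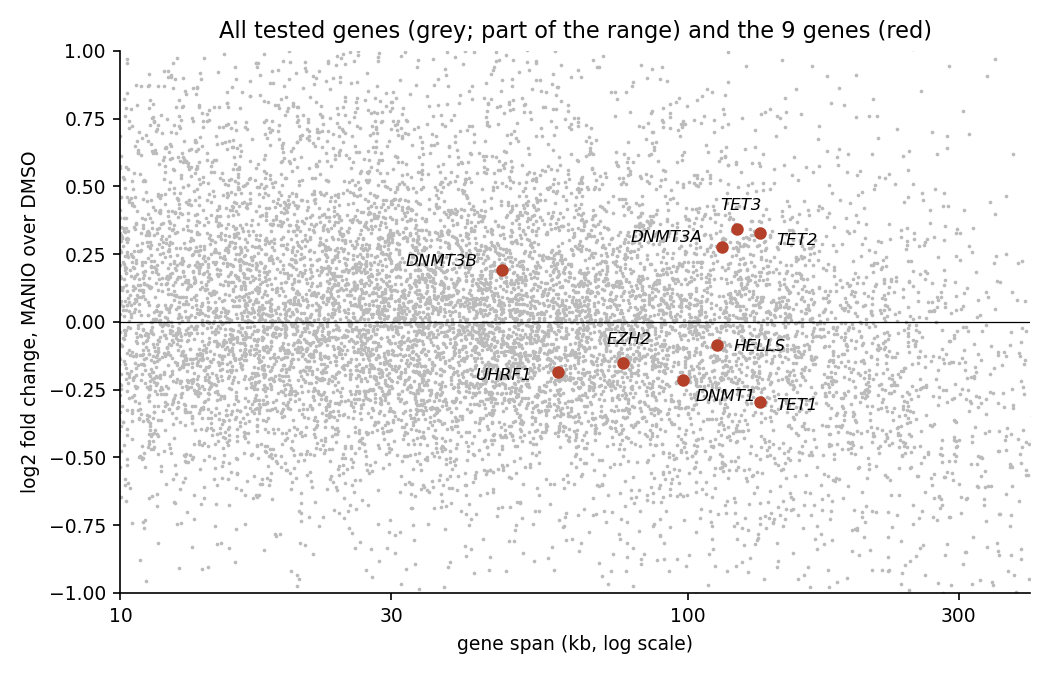
Log2 fold change, MANIO over DMSO, against gene span on a log axis for tested genes (grey; genes outside the axes are not shown) and the 9 genes (red). DNMT3A, TET2 and TET3 lie above 0 at 115 to 134 kb, and TET1 lies below 0 at 134 kb.

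TET3, with the smallest p of the 9 genes, was used to look for similar profiles among 12089 other tested genes with a symbol and an average log2 CPM of at least 1. The smallest root mean square differences of centred log2 CPM over the 8 libraries were those of PDPR (0.0325), VASH1-AS1 (0.0332) and USB1 (0.0337). PDPR had 112 ± 3.33 CPM in MANIO and 87.2 ± 4.47 CPM in DMSO (SD, n = 4 each), and USB1 had 104 ± 4.22 CPM in MANIO and 81.4 ± 4.06 CPM in DMSO. VASH1-AS1 is an antisense gene with 86.3% of its exonic bases in another gene, so its count is uncertain, and 19.6% of PDPR's exonic bases overlap another gene. The likeness rests on 8 libraries in 2 groups and carries no statement on function.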

How the data were processed

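The deposited values are raw counts, whole numbers in the file, of 58302 genes with Ensembl IDs in 8 libraries, and 0 columns were left out. Per the submitters' processing notes, FastQC 1.3, STAR 2.5.3a, HTSeq and DESeq2 were used with GRCh38; the role of each, the annotation release and the strand setting: not given in the sources used here. Per the labels' protocols, libraries were made with a TruSeq RNA kit, version 2, which does not mark strand, so overlapping genes cannot be told apart. Counts were analysed in R 4.3.3 with edgeR 4.0.16: genes passing filterByExpr (15712), TMM scaling, quasi-likelihood F test on group alone, robust dispersions, Benjamini-Hochberg adjustment over all tested genes, called at an adjusted p under 0.05. SE comes from the F statistic, and intervals at 95% from the fit. Pairs of genes were compared by exact two-sided permutation over 70 assignments. Spans, exonic lengths and overlaps come from GENCODE 29, which holds 15673 of the tested genes, and promoter sequences from RefSeq on GRCh38.p14. Between libraries of a group, chi-square per degree of freedom was at least 3.57, so none was counted as a duplicate. The 9 genes and the lists were chosen with earlier results of these data known. Named were the 4 genes of smallest p in each list, called genes moving against their list's majority, and the 3 genes closest to the profile of the member with the smallest p; 1 gene so chosen is not reported here. Scripts were tested on simulated data. DESeq2 1.42.0, other scalings, no filter, a 1.2-fold limit, a replicate block and leaving out each library were the alternatives.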

Additional observations from a re-analysis of the deposited data

Results flagged for a closer look

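Of 116 groups of 4 libraries examined for a library far from the other 3, 6 had one, where chance gives about 1 in 20. The level of TET1 in DMSO replicate 3 was 4.455 CPM, against 4.926 to 5.009 CPM in the other DMSO libraries. The level of OGT in DMSO replicate 4 was 272.9 CPM, against 248.3 to 249.1 CPM, and that of NDRG4 in DMSO replicate 3 was 15.94 CPM, against 13.14 to 13.53 CPM. CDKN1A stood at 1257 CPM in MANIO replicate 4, below 1445 to 1462 CPM in the other MANIO libraries. The log2 ratio of UHRF1 to HELLS was -0.2629 in MANIO replicate 4, against -0.025 to 0.021 in the other MANIO libraries. The mitochondrial share of counts was 7.48% in DMSO replicate 1, against 4.82% to 5.21% in the other DMSO libraries. Whether these values share a source was not tested.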

How the results depend on the processing

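The direction of each of the 9 genes held in all 14 alternatives. Against a 1.2-fold limit the log2 fold changes are those reported, but DNMT1 (-0.22), DNMT3A (0.28), DNMT3B (0.19), UHRF1 (-0.18), TET1 (-0.29), TET2 (0.33), TET3 (0.34) and EZH2 (-0.15) lost their calls, so 0 of the 9 passed and 4132 genes in all, since this limit asks for a larger change. DESeq2 lost TET1 (-0.30), and 7 of the 9 passed. With 1 library left out, 6 to 8 of the 9 passed. The log2 fold change then ranged from -0.25 to -0.17 for DNMT1, 0.25 to 0.30 for DNMT3A, 0.15 to 0.22 for DNMT3B, -0.24 to -0.15 for UHRF1, -0.12 to -0.04 for HELLS, -0.34 to -0.25 for TET1, 0.31 to 0.37 for TET2, 0.31 to 0.37 for TET3 and -0.18 to -0.13 for EZH2. UHRF1 lost its call without MANIO replicates 1 (-0.1562) or 4 (-0.1537) and DMSO replicates 2 (-0.1713), 3 (-0.1459) or 4 (-0.1863). EZH2 lost it without MANIO replicates 1 (-0.125) or 2 (-0.1506) and DMSO replicates 2 (-0.1372), 3 (-0.1503) or 4 (-0.1482), and DNMT3B without MANIO replicate 3 (0.1631). Same-numbered libraries correlated at 0.0385 to 0.163 in their deviations from the group mean, over 0.1 in 2 of 4 pairs, so the numbers were not taken as pairs. With a replicate block 8845 genes passed, against 8574, and 8 of the 9; for ratios, the sign-flip test over 4 pairs cannot go below 0.125.

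Against the 1.2-fold limit the lists had 12 S phase genes called, 3 TET cofactors, 2 each of methylation partners, methyl-CpG readers and base excision genes, 1 each of PRC2 and promoter-methylated genes, and 0 methyl donor and germline genes. Without DMSO replicate 1 both demethylase genes rose, 2 in place of 1 (range 1 to 2 with 1 library left out). The germline list had 2 calls without a filter and 2 with DESeq2, since both let DDX4 in. For the named list genes with CDKN1A and MDM2, 593 of 630 alternatives kept direction and call, 28 lost a call (19 of them at the 1.2-fold limit), 8 gained one and 1 reversed, EED without MANIO replicate 3 (0.01321), which passed in no fit (-0.08701 to 0.01321 with 1 library left out). With 1 library left out, the differences in log2 ratio ranged from -0.522 to -0.442 for DNMT1/DNMT3A, from -0.179 to -0.0305 for UHRF1/HELLS, from -0.072 to -0.00156 for DNMT1/UHRF1 and from -0.061 to 0.041 for TET2/TET3; their p-values were not recomputed. Low counts limit TET1 and the silenced genes.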
